A study of Mus musculus with 2 samples.

Results

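The 10 genes described here mark stem cells of the intestine or act as feedback genes of the Wnt pathway: Lgr5, Lgr4, Axin2, Rnf43, Znrf3, Ascl2, Olfm4, Smoc2, Tnfrsf19 and Lrig1. They were taken as a given list of symbols, matched by Ensembl identifier without its version. The rule used no measured values, but earlier results of these data were known when the list was set. All 10 were found, among 43346 Ensembl genes in the gene tables, and they have 42 of the 103639 transcripts in the transcript tables. Total RNA was sequenced from intestine of healthy mouse embryos of strain B6NCrl at embryonic day 15.5 (E15.5), in 2 libraries that form 1 group. Replicate 1 came from a pool of 78 embryos of both sexes and replicate 2 from a pool of 62, with 10 ng of RNA in each library. There is no second age, tissue, genotype or treatment, so genes are described against each other, against all other genes, and between the pools. The spread given is that between pools of embryos, n = 2 throughout, and no differential test is possible with 1 group.

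In the Wnt pathway a secreted Wnt binds a Frizzled receptor, which spares beta-catenin from destruction and lets it switch on target genes together with TCF/LEF factors. Several targets act back on the pathway. Axin2 is a scaffold of the destruction complex, and the ubiquitin ligases Rnf43 and Znrf3 remove Frizzled receptors from the cell surface. R-spondins, secreted ligands of the receptors Lgr4 and Lgr5, block these ligases and so raise the Wnt response. In the adult small intestine Lgr5, Ascl2, Olfm4 and Smoc2 mark the columnar stem cells at the crypt base, while crypts do not yet exist in the mouse at E15.5.

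The gene tables held 33665128 and 39953610 estimated counts on Ensembl genes in replicates 1 and 2, and 3 counts on a transcript of 1 kilobase corresponded to 0.125 and 0.107 TPM, the abundance of a transcript scaled by its length and by the library total. Epithelial, mesenchymal and smooth muscle markers were all present, with summed TPM of 3467 and 3335 for 8 epithelial genes in replicates 1 and 2, 2871 and 3218 for 6 mesenchymal genes and 3768 and 3789 for 6 smooth muscle genes. In these bulk samples a lower share of the cells that express a gene cannot be told apart from less of its RNA in each cell. Nor can the level of any of the genes described here, Smoc2 included, be assigned to the epithelium or to another cell type. Genes used as markers of other organs were present in both libraries, at levels that differed between them. Whether their RNA came from those organs was not tested. All 6 exocrine pancreas genes were over 1.5-fold higher in replicate 1, with summed TPM of 5720 and 1998. The 4 liver genes, 1 of them over 1.5-fold apart, summed to 581 and 411. Of all genes with a TPM of at least 1 in either library, 4.61% were over 1.5-fold apart.

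Sequence is shown for the places where the transcript tables or the promoters bear on these genes. The first pair shows the alternative exon of Lgr4, whose estimated use differed between the libraries. The exon is in capitals, with 30 bases of the spliced transcript on each side in lower case, and the second line is the junction made when it is skipped (chr2:109970692-109970763, plus strand, mm10).
Lgr4-201 exon included: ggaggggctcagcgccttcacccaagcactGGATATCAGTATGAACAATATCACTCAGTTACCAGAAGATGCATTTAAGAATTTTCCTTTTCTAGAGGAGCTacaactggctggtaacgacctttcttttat
Lgr4-202 exon skipped: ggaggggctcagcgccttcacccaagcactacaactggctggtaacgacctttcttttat
The second pair shows Rnf43, whose most abundant transcript keeps part of an intron. The first line runs from an exon into the kept intron at chr11:87729532-87729591 on the plus strand, with the GT of the splice donor in capitals. The second line is the same exon joined to the next in the spliced, protein-coding transcript.
Rnf43-206 intron kept: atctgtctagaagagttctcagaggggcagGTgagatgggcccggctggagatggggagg
Rnf43-209 intron removed: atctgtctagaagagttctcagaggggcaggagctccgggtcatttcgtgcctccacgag
The third pair gives the 250 bases before the annotated start of Ascl2 and of the downstream start of Tnfrsf19, from RefSeq on GRCm38.p6. Capitals mark the E-box words (CANNTG) of Ascl2 at chr7:142969265-142969514, and the TCF-like word CTTTGAT, here read on the opposite strand, of Tnfrsf19 at chr14:61037988-61038237. Both genes lie on the minus strand.
Ascl2 upstream: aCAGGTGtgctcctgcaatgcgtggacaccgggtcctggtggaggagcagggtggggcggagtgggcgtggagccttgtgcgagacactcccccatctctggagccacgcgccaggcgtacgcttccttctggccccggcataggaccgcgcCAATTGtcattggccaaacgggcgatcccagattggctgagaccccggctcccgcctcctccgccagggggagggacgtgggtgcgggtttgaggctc
Tnfrsf19 upstream: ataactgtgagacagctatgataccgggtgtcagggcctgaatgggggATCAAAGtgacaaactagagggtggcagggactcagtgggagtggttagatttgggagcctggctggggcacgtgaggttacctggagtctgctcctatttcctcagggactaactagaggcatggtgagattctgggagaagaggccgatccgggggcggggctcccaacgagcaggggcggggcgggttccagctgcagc

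All 10 genes were detected, taken as 1 TPM or more in each library, against 34.6% of all Ensembl genes and 62.7% of protein-coding genes. Their mean levels ran from 4.18 to 102 TPM. The median over the 10 was 9.59 ± 0.417 TPM (SD), below the 15.5 ± 0.145 TPM of all detected genes. In both libraries 4 of 10 stood at 10 TPM or more, against 63.9% of detected protein-coding genes.

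**Figure D1:**
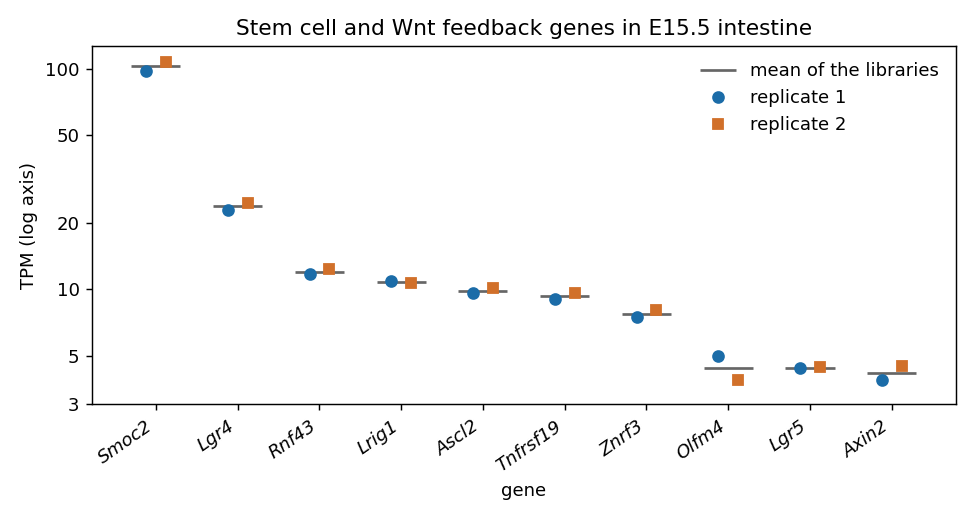
TPM of each gene (log axis) in replicate 1 (circles) and replicate 2 (squares), with the mean as a line, ordered by mean. Smoc2 stood at 97.7 and 107 and the lowest gene, Axin2, at 3.87 and 4.48.

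The R-spondin receptors were unequal. Lgr5 (ENSMUSG00000020140.11, chromosome 10, 115450311 to 115587780, minus strand), the receptor that marks adult crypt stem cells, had 4.38 and 4.42 TPM in replicates 1 and 2. These rest on 482 and 564 estimated counts, with exact Poisson intervals of 440 to 527 and 518 to 613. Its level was thus nearly equal in the pools and lay above 17.8% of detected protein-coding genes.

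Lgr4 (ENSMUSG00000050199.9, chromosome 2, 109917647 to 110014257, plus strand), the broadly expressed relative that binds the same ligands, had 22.9 and 24.6 TPM from 2674 and 3367 counts. It exceeded Lgr5 5.40 ± 0.237 fold, in both libraries, a gap far wider than the spread of either gene. Lgr6, the other member of the receptor family, had 0.40 and 0.38 TPM, and Lgr5 exceeded it 11.3 ± 0.482 fold.

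Their ligands were led by Rspo3, with 14.5 and 14.9 TPM. Rspo1 had 7.38 and 6.90 TPM and Rspo2 had 2.04 and 2.67 TPM. Rspo4 was at 4 counts in replicate 1 and 0 counts in replicate 2, so 3 of 4 ligands were detected. Lgr4 stood 1.62 ± 0.0464 fold above Rspo3, its most abundant ligand here.

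Of the 3 feedback inhibitors among the 10 genes, Rnf43 was the highest by the TPM of the whole gene. Rnf43 (ENSMUSG00000034177.11, chromosome 11, 87662722 to 87735539, plus strand) had 11.7 and 12.3 TPM. Znrf3 (ENSMUSG00000041961.10, chromosome 11, 5276324 to 5444847, minus strand), the second ligase, had 7.45 and 8.01 TPM. Rnf43 exceeded Znrf3 1.55 ± 0.0237 fold, and the libraries of the pair did not overlap. This order does not hold for coding transcripts alone. Those of Rnf43 had 3.81, 1.34 and 0.49 TPM in replicate 1 and 3.56, 1.89 and 0.58 TPM in replicate 2. Together they lay below Znrf3, whose transcripts are all annotated as coding, in each library.

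Axin2 (ENSMUSG00000000142.11, chromosome 11, 108920349 to 108950783, plus strand), often read as a reporter of Wnt activity, was the lowest of the 10 at 3.87 and 4.48 TPM, from 253 and 322 counts. Its paralog Axin1, a scaffold of the same complex that is not a Wnt target, had 11.97 and 15 TPM. Axin2 therefore stood at 0.311 ± 0.0174 of the Axin1 level.

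Smoc2 (ENSMUSG00000023886.9, chromosome 17, 14279506 to 14404790, plus strand), a secreted calcium-binding matrix protein, stood apart at 97.7 and 107 TPM from 6397 and 8184 counts. It exceeded Lgr4, the next gene, 4.31 ± 0.0690 fold and Lgr5 23.3 ± 1.39 fold, and lay above 88.3% of detected protein-coding genes. Smoc1, its paralog, had 7.95 and 6.76 TPM, and Smoc2 exceeded it 14.1 ± 2.53 fold.

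Ascl2 (ENSMUSG00000009248.5, chromosome 7, 142966829 to 142969264, minus strand), a basic helix-loop-helix factor that controls adult crypt stem cells, had 9.56 and 10.2 TPM from 345 and 427 counts. It exceeded Lgr5 in both libraries, by 2.24-fold in the mean. Of its paralogs, Ascl3 and Ascl4 had 0 counts in replicate 1 and 1 and 7 counts in replicate 2, and Ascl5 had 0 counts in both libraries.

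Olfm4 (ENSMUSG00000022026.6, chromosome 14, 79984081 to 80023139, plus strand), a secreted olfactomedin protein of crypt base cells in humans, had 4.96 and 3.86 TPM from 183 and 166 counts. Replicate 1 was the higher one, and this was the largest gap between the libraries among the 10. Olfm1, a relative of neural tissue, had 16.7 and 18.2 TPM, so Olfm4 stood at 0.255 ± 0.0604 of the Olfm1 level. Olfm2 had 7.09 and 6.84 TPM, and Olfm3 had 0.33 and 0.15 TPM.

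Tnfrsf19 (ENSMUSG00000060548.8, chromosome 14, 60963875 to 61046490, minus strand), a receptor of the tumour necrosis factor family also called Troy, had 9.03 and 9.61 TPM. Lrig1 (ENSMUSG00000030029.10, chromosome 6, 94604529 to 94700158, minus strand), a membrane protein that restrains ErbB receptors, had 10.9 and 10.7 TPM. Its paralogs were close to it, with 7.06 and 7.60 TPM for Lrig2 and 8.19 and 9.67 TPM for Lrig3, and Lrig1 was the highest of the 3 in both libraries.

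In the order of mean level, from Smoc2 over Lgr4, Rnf43, Lrig1, Ascl2, Tnfrsf19, Znrf3, Olfm4 and Lgr5 to Axin2, 3 of 9 neighbouring pairs overlapped between libraries. Within each library Ascl2 stood above Tnfrsf19, at 9.56 against 9.03 TPM in replicate 1 and 10.2 against 9.61 TPM in replicate 2. The deposited TPM intervals of this pair overlapped in each library. Olfm4 and Lgr5 could not be placed in order, nor could Lgr5 and Axin2, since their order turned between the libraries. The means of the last 3 genes lay between 4.18 and 4.41 TPM. The step from Znrf3 to Olfm4 was 1.753-fold in the means, without overlap.

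The transcript tables split each gene over its annotated transcripts, and the share of each transcript in the TPM of its gene was read from them. Lgr5-201, the full coding transcript, carried 93.5% and 93.8% of Lgr5. The other 6.49% and 6.24% fell on transcripts annotated as retained introns, and 5 of the 8 Lgr5 transcripts had a share of 0 in both libraries. Znrf3 likewise rested on 1 transcript, Znrf3-201, with 95.5% and 95.7%. Olfm4 and Smoc2 had 1 transcript each in the annotation used for counting.

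Lgr4 was split between a pair of coding transcripts that differ by 1 exon. Lgr4-201 includes exon 2 of 18, which is 72 bases long and coding throughout, so that skipping it removes 24 codons and keeps the reading frame. In the leucine-rich repeat receptors of this family such exons encode repeats of the ligand-binding part. Lgr4-202, the transcript without the exon, carried 60.9% of Lgr4 in replicate 1 and 43.0% in replicate 2.

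Lgr4-201 carried 38.1% and 56.4%, so a different transcript led in each library. The deposited interval for the TPM of Lgr4-202, whose level is not stated, ran from 10.3 to 15.9 in replicate 1 and from 6.77 to 13.0 in replicate 2. These overlap, and the shift of 18.3 points in the share of Lgr4-201 rests on reads over an exon of 72 bases. Of the 6 genes with several transcripts and at least 5 TPM in each library, the leading transcript differed in Lgr4 alone, against 7.21% of such protein-coding genes. Among these 6, a shift of at least 10 points in any transcript was seen in the same gene alone, against 19.6%. Axin2, left out by the limit of 5 TPM, had a shift of 13.6 points in Axin2-203.

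Rnf43 was led by a transcript that is not annotated as coding. Rnf43-206, annotated as a retained intron, carried 48.2% and 48.0% of the gene. With a second transcript of this kind the share reached 51.8% and 50.9%, against 48.2% and 49.1% for the 4 coding transcripts together. Rnf43-206 covers all 913 bases of intron 1 of Rnf43-209 and ends 373 bases into intron 7, whose splice donor is shown above and lies within the coding region.

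Among the coding transcripts Rnf43-209 carried 32.6% and 29.0% and Rnf43-202 carried 11.5% and 15.4%. Posterior mean shares were 17.1% and 22.1% for Rnf43-209 and 17.6% and 13.9% for Rnf43-202, which turns their order in replicate 1, so the split between these transcripts is not determined here. Retained-intron transcripts led 1 of the 6 genes, against 3.16% of protein-coding genes at this level. The libraries were made from total RNA, which can hold unspliced transcripts. Their part in the Rnf43 share was not tested.

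**Figure D2:**
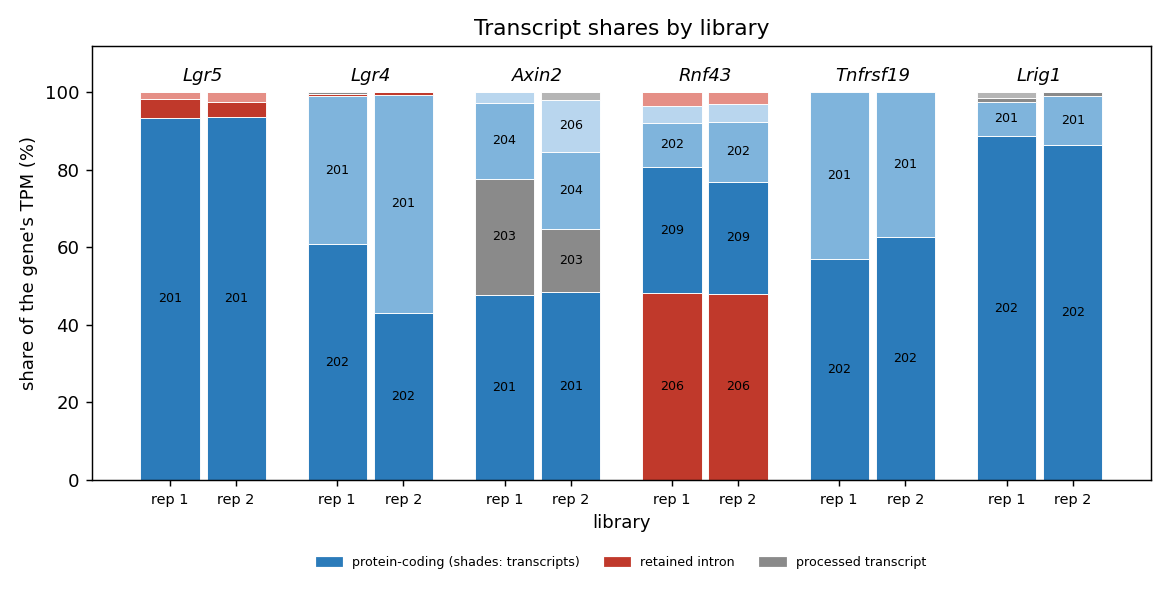
Share of each transcript in its gene's TPM (percent, stacked) in replicate 1 and replicate 2, for Lgr5, Lgr4, Axin2, Rnf43, Tnfrsf19 and Lrig1. Numbers name transcripts with at least 8 percent, and colours mark their annotated kind. Lgr4-202 leads in replicate 1 (60.9%) and Lgr4-201 in replicate 2 (56.4%), and Rnf43-206 holds 48.2% and 48.0%.

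Tnfrsf19 was split over a pair of annotated transcripts. In GENCODE M21 they have different starts and first exons, and coding regions of the same length, 1248 bases. The counted versions were longer, with 4036 against 3958 bases for Tnfrsf19-202 and 4639 against 4051 for Tnfrsf19-201. The starts named here are therefore those of M21, and use of each start was not measured directly. Tnfrsf19-202, from the downstream start, carried 57.0% and 62.7%, and Tnfrsf19-201, from the upstream start, 43.0% and 37.3%. The downstream transcript led in both libraries. Lrig1-202 carried 88.7% and 86.4% of Lrig1, and Lrig1-201, with the same coding length in M21, 8.94% and 12.6%.

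Axin2 had 4 transcripts with a share of at least 5% in either library, against 3 for Rnf43. Its full coding transcript Axin2-201 held 47.8% and 48.5%, and Axin2-203, a processed transcript of the 3′ end, held 29.9% and 16.3%. Axin2-204 held 19.6% and 19.9%. With 253 and 322 counts for the whole gene, Axin2-203 rests on 54.0 and 39.6 counts.

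Ascl2 had a pair of transcripts of 1605 and 1612 bases in the annotation used for counting. All counts were placed on Ascl2-202, the shorter, in both libraries. The posterior mean version in the same tables gave it 43.5% and 72.6%, so the split of Ascl2 over its transcripts is not determined by these data, while the gene level does not depend on it.

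Between the libraries the genes were close, as the plot of count ratios shows. The log2 ratio of replicate 1 over replicate 2, taken on TPM + 1, ran from -0.17 for Axin2 to 0.29 for Olfm4. Its median over the 10 was -0.08, against -0.02 over 14986 detected genes. None of the 10 was over 1.5-fold apart, against 4.61% of genes with a TPM of at least 1 in either library.

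A lower level in replicate 1 was seen for 8 of 10, with Olfm4 and Lrig1 the exceptions, against 55.2% of all detected genes. By counts, replicate 1 held 1.31 times the Olfm4 share of replicate 2, with a 95% exact binomial interval of 1.05 to 1.62. The Smoc2 share was 0.928 of that in replicate 2 (0.898 to 0.959) and the Lgr4 share 0.943 (0.896 to 0.992). The intervals of the other 7 genes included 1, so 3 of 10 left it out, against 40.4% of detected genes. Scaling the counts to the spike-ins shifted the median log2 ratio of all detected genes by -0.27 and gave -0.26 for Lrig1, in place of 0.03. Centring on all detected genes gave 0.01 for Lgr5, in place of -0.01. The intervals compare the 2 libraries and cover counting error only, since reads without molecular identifiers are not independent molecules.

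The 95th percentile of the count ratio over detected genes was also 1.31, so Olfm4 lay near the edge of what other genes did. The marker lists did not all go the same way. All 6 mesenchymal genes were lower in replicate 1, with a median log2 ratio of -0.14, and 6 of 8 epithelial genes were higher, with a median of 0.05. The exocrine pancreas list had a median of 1.52. Of 5 stomach genes only 2 were detected, Cldn18 and Tff2, both higher in replicate 1, by 0.74 and 1.28. Tff2 rests on 75 and 28 counts. The other 3 stayed under 1 TPM in each library, and of these Gkn1 was the lower in replicate 1, with 0.19 and 0.35 TPM. The part of these cell types in the ratios of the 10 genes was not tested.

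**Figure D3:**
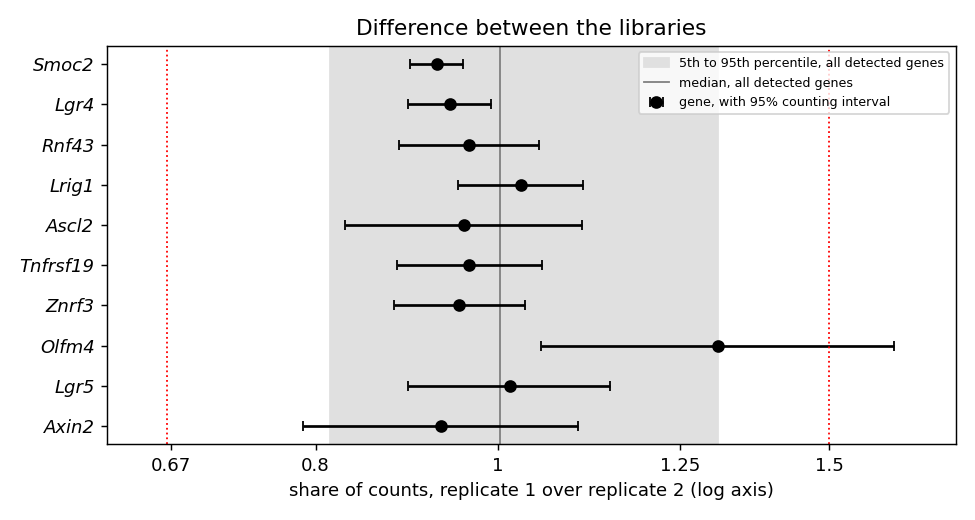
Share of counts in replicate 1 over that in replicate 2 for each gene (log axis), with 95% exact binomial intervals; the grey band spans the 5th to 95th percentile of all detected genes (0.815 to 1.31), and dotted lines mark 1.5-fold. Smoc2 and Lgr4 lie below 1 and Olfm4 above it with intervals that leave out 1.

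Other genes of the pathway came from lists of Wnt targets, stem cell genes and signal transducers, on the same TPM scale. Of 18 other Wnt targets 11 were detected in both libraries, a share close to that of all protein-coding genes. Myc, a growth regulator, had 82.5 and 90.1 TPM, and cyclin D1 (Ccnd1) had 54.6 and 63.8 TPM. Sox9, a factor of progenitor cells, had 29.1 and 34.5 TPM, and Nkd1, a feedback inhibitor, had 14.4 and 15.3 TPM.

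Among the genes under 1 TPM were Sp5 with 0.48 TPM in both libraries, the TCF-family factor Lef1 with 0.53 and 0.69 TPM, Apcdd1 with 0.59 and 0.50 TPM and the secreted inhibitor Wif1 with 0.24 and 0.47 TPM. In all, 6 of the 18 stayed under 1 TPM in each library. The other two, outside the naming rule and named after their values were seen, were Mmp7 with 0.73 and 0.48 TPM and Dkk4, the lowest of the list, with 1 and 0 counts. The list's median was 2.85 ± 0.0283 TPM, below that of the 10 genes. Over its members with a TPM of at least 1 in either library the median was 8.66 TPM.

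All 12 other stem cell genes were detected, with a median of 12.4 ± 1.22 TPM. Cdca7, a chromatin factor, had 96.9 and 104 TPM, the cholesterol esterifying enzyme Soat1 had 63.9 and 73.0, the membrane protein Prom1 had 24.2 and 25.9 and the co-receptor Rgmb had 21.9 and 24.1 TPM. Genes that mark fetal progenitors in culture were led by clusterin (Clu), with 99.02 and 57.4 TPM, osteopontin (Spp1), with 83.7 and 65.4, annexin Anxa1, with 42.2 and 51.7, and the connexin Gja1, with 31.2 and 34.9 TPM. Clu and Il1rn (1.97 and 0.55 TPM) were over 1.5-fold higher in replicate 1, 2 of 8 genes of this list. Over all genes with a TPM of at least 1 in either library, 4.61% were over 1.5-fold apart. Il1rn rests on 54 and 32 counts and was under the detection limit in replicate 2. All 8 reached a TPM of 1 in at least 1 library, and 7 in both.

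The 16 transducers of the signal were all detected, with a median of 14.0 ± 0.449 TPM. Beta-catenin (Ctnnb1) had 312 and 329 TPM, the kinases Csnk1a1 and Gsk3b 166 and 185 TPM and 37.9 and 40.6 TPM in replicates 1 and 2, and the factor Tcf7l2 54.3 and 66.7 TPM. Proliferation genes, led by Pcna with 205 and 217 TPM and Ccnb1 with 170 and 182, had a median of 150 ± 8.01 TPM, with all 6 detected. The 8 epithelial genes had a median of 441 ± 20.7 TPM. The list medians describe these libraries, and the lists were not tested against each other.

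**Figure D4:**
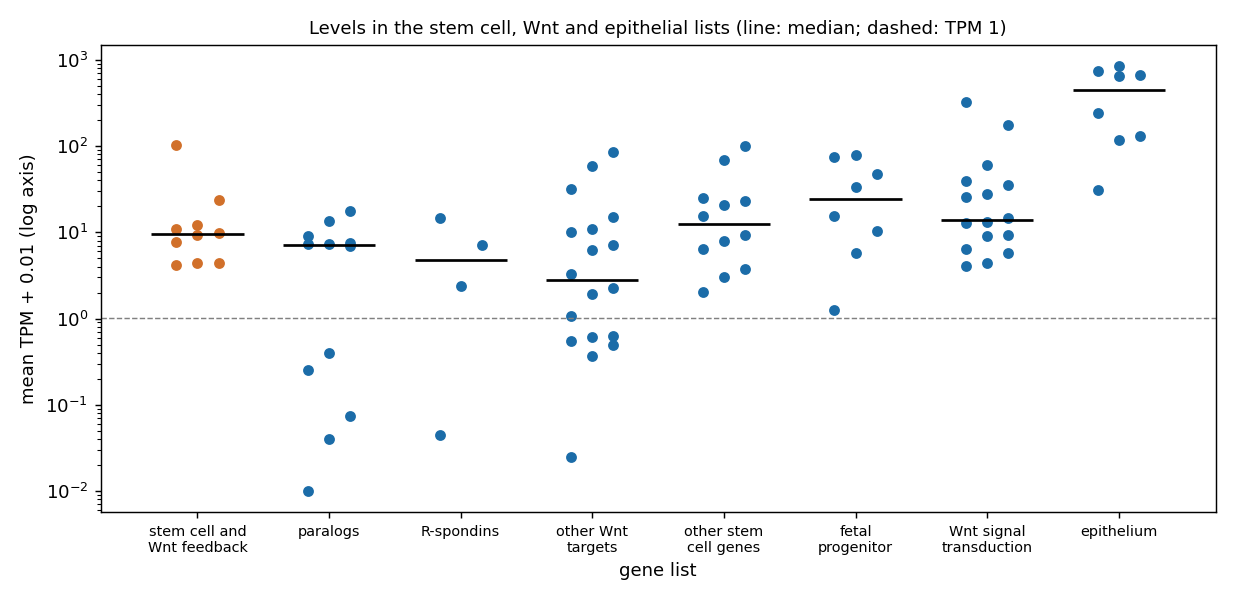
Mean TPM + 0.01 (log axis) of each gene in the stem cell and Wnt feedback genes (orange, left) and in 7 other lists (blue), with the list median as a line and a TPM of 1 dashed. The 10 genes lie between 4.18 and 102 TPM with a median of 9.59, and the epithelial list has a median of 441.

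The promoters were searched for words that the choice of genes did not use. RefSeq windows of 300 bases, 250 before and 50 after a start, were found for 7 of the 10 genes, 9 windows in all, since Rnf43 and Tnfrsf19 have a pair each. Lgr5, Smoc2 and Znrf3 had none. The word CTTTGA, bound by TCF/LEF factors, was found on either strand in 1 of the 9 windows, that of the downstream Tnfrsf19 start, against 16% of 32851 windows. There it extends to CTTTGAT, which starts 202 bases before the start site and occurs in 3.73% of windows.

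CTTTGTT was in 0 of the 9 windows, against 5.85% of all. E-box words (CANNTG, searched on both strands) were in 5 of 9 windows, against 72.3% of all. Ascl2, itself a factor of the E-box binding class, has them at 249 and 98 bases before its start, as shown above. Such matches describe the letters in these windows and not binding.

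Between 0% and 4.20% of the 31-base words in each gene's M21 transcripts occur, on either strand, in M21 transcripts of other genes. This set differs from the annotation used for counting. Olfm4 has 2955 words in it, against 1640 bases in its counted transcript, so some words lie outside the counted sequence. Lgr5 shares 102 of its 10294 words with transcripts of 4377 genes. Znrf3 shares 27 words with 2963 genes, and Smoc2 shares 9 words with 33 genes. For 3 genes the shared words come from an overlapping neighbour: Slc25a26 on the opposite strand of Lrig1, with 6.70 and 7.81 TPM, the antisense gene Gm11670 at Axin2, with 0 and 0.09 TPM, and Gm6999 at Olfm4, listed at 0 in both libraries. The labels and headers do not state whether reads were counted by strand, and the overlap with Slc25a26 spans 144 bases.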

How the data were processed

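Total RNA of 2 libraries was analysed. The authors deposited a gene and a transcript table for each, on mm10 with GENCODE M4, per the deposited readme, which also lists transcriptome alignments. No header or label used here names the aligner or quantifier. Per the file headers, the values are expected counts, estimated by the authors and not always whole. TPM and FPKM were made by the authors from these per length, spike-ins included. The deposited transcript tables also give each transcript's share in percent, and a TPM interval of unstated level that was treated as a score. Totals were 33665128 and 39953610 counts on genes. ERCC spike-ins took 2.16% and 1.76% of all counts, and entries named by a number 0.000163% and 0.000150%. Both were left out.

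Symbols, positions and transcript kinds came from GENCODE M21 on the same assembly. Detection needed a TPM of 1 in both libraries, and ratios used a pseudocount of 1. The interval of the count ratio was tested on simulated Poisson counts, and the interval of single counts was not. Rounded expected counts entered edgeR 4.0.16 and DESeq2 1.42.0 for alternative scaling only, in R 4.3.3. Other steps used Python 3.11.15 with SciPy 1.17.1. The 10 genes, the 18 lists beside them and the naming rule (all 10 genes, their paralogs and ligands, and in each pathway list the 4 highest, up to 4 below a TPM of 1 and up to 3 over 1.5-fold apart) were chosen with earlier results of these data known. The values of 1 gene that the rule names are not reported here. The lists of cell types served as a check of the tissue. Transcript comparisons over all genes, the share of intervals that leave out 1 and the search for copies were added after the values were seen. Summed TPM of lists not given in the report were 143 and 142 for mesothelium, 125 and 134 for enteric neural cells, 183 and 178 for endothelium, 169 and 154 for macrophages, 10.9 and 4.43 for stomach and 89.1 and 85.8 for erythroid cells, in replicates 1 and 2. Alternatives covered the unit, scaling, pseudocount, filters and each library alone.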

Additional observations from a re-analysis of the deposited data

How the results depend on the processing

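No paired analysis was possible because the libraries form 1 group. No result changed sides of a test, since none was tested. With posterior mean TPM the mean levels were 4.89 for Lgr5, 4.73 for Axin2, 13.3 for Rnf43 and 11.04 for Lrig1. In FPKM they were 3.05 for Lgr5, 16.4 for Lgr4, 2.88 for Axin2, 8.29 for Rnf43, 5.34 for Znrf3, 6.82 for Ascl2, 3.05 for Olfm4, 70.8 for Smoc2, 6.44 for Tnfrsf19 and 7.45 for Lrig1. With TPM over Ensembl genes alone they were 4.59 for Lgr5, 12.5 for Rnf43, 10.3 for Ascl2 and 11.3 for Lrig1. Ranked among all detected genes, coding or not, Lgr5 lay above 21.9%, Lgr4 above 60.5%, Axin2 above 20.9%, Rnf43 above 43.4%, Znrf3 above 33.0%, Ascl2 above 38.4%, Olfm4 above 22.0%, Tnfrsf19 above 37.1% and Lrig1 above 40.7%. Scaled to spike-ins, the log2 ratios were -0.28 for Lgr5, -0.38 for Lgr4, -0.35 for Rnf43, -0.37 for Znrf3, -0.36 for Ascl2, -0.41 for Smoc2, -0.35 for Tnfrsf19 and -0.26 for Lrig1. Those of Axin2 and Olfm4 were lowered as well, to -0.40 and 0.09. Posterior mean shares were 80.3% for Lgr5-201, 37.7% for Axin2-201, 42.5% for Rnf43-206, 94.985% for Znrf3-201, 58% for Ascl2-202 and 82.2% for Lrig1-202. Over list genes with a TPM of at least 1 in either library, the medians were 8.30 for paralogs, 7.14 for R-spondins and 8.66 for other Wnt targets. With each library alone, the rank of Lgr5 ran from 17.775% to 17.812%. A detection limit of a TPM of 5 left 7 of the 10 genes. The causes of these shifts were not tested. The effect of depth was not varied, and the shares of Axin2 transcripts rest on 253 and 322 counts for the gene.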
